A study of Homo sapiens with 183 samples.

Results

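The response of basal-like and classical pancreatic ductal adenocarcinoma (PDAC) cell lines to loss of KLF5 was compared gene by gene. For each gene, the sgKLF5 minus sgRosa change in log2(TPM + 1) in the basal-like lines T3M-4 and BxPC-3 was set against the same change in the classical lines AsPC-1 and SUIT-2. TPM is a relative abundance of transcripts, corrected for their length, and all changes and differences below are on this log2 scale, which understates the change of genes of low abundance. Genes were compared where the mean level reached 1 TPM in each of the 4 lines, which left 10823 of 19875 genes. mRNA was sequenced after CRISPR-Cas9 knockout or inhibitor treatment in 183 libraries, and 32 were used here. They form 8 groups of 4 libraries, sgKLF5 and sgRosa in each line, collected on day 5. All cells, controls included, stably expressed Cas9 and carried a guide in a puromycin vector. sgRosa is the control. The study used 2 guides for KLF5 and 2 for Rosa, and the labels do not tell them apart. T3M-4 and BxPC-3 came from experiment 2, AsPC-1 from experiment 3 and SUIT-2 from its only experiment, so line and experiment cannot be told apart. Neither classical group used here carries the label of experiment 2, so subtype and experiment cannot be told apart either. The labels do not say whether an equal number marks a shared batch across lines. A further 20 libraries of T3M-4, BxPC-3 and AsPC-1, from experiment 1, were kept for a repeat of the comparison.

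KLF5 is a zinc finger transcription factor of simple and stratified epithelia that binds GC-rich and CACC-type sites, often in enhancers. PDAC is commonly divided into a classical subtype, which keeps gut and pancreas endoderm genes such as HNF4A and those of mucins, and a basal-like subtype, which expresses squamous genes such as TP63 and basal keratins. The comparison asks which genes depend on KLF5 differently in the 2 states.

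In the control libraries the labels of the lines were borne out by most of their defining genes. KRT5 was at 305.5 ± 36.3 TPM in T3M-4 and 3258 ± 122 TPM in BxPC-3 (mean ± SD, n = 4), against 0.164 TPM in AsPC-1 and 0.0146 TPM in SUIT-2. TP63, the squamous master regulator, was at 93.04 and 107.3 TPM in the basal-like lines and at 1.00 and 0.392 TPM in the classical lines. HNF4A, a hepatocyte nuclear factor of endoderm, was at 0.386 and 0.210 TPM in T3M-4 and BxPC-3 and at 70.2 and 17.6 TPM in AsPC-1 and SUIT-2. Several markers went against the division. TFF1 and CEACAM5, counted as classical, were higher in both basal-like lines, with CEACAM5 at 120.4 and 234.1 TPM against 4.09 and 9.64 TPM. GATA6 was at 40.7 TPM in BxPC-3, and the brush border myosin MYO1A was at 91.3 TPM in AsPC-1 but 0.0902 TPM in SUIT-2. Of markers of other cell types, the fibroblast gene LUM was at 99.7 TPM in AsPC-1 and 17.3 TPM in T3M-4, and the leukocyte gene PTPRC was at 7.59 TPM in T3M-4, with values up to 1.44 TPM in the other lines; their part in the results was not tested.

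The targeted gene did not lose its mRNA, which a Cas9 cut need not remove, and no protein measurement was used here. KLF5 was at 329.0, 338.9, 399.8 and 261.8 TPM in T3M-4 sgRosa and at 533.2, 541.6, 603.7 and 582.5 TPM in T3M-4 sgKLF5, where it rose by 0.78 ± 0.17 (log2, ± SE). In BxPC-3 it was at 343.7, 307.6, 354.0 and 335.5 TPM with sgRosa and 348.5, 362.5, 383.7 and 354.7 TPM with sgKLF5. In AsPC-1 it was at 159.6, 152.4, 162.5 and 148.4 TPM with sgRosa and 140.4, 177.5, 192.8 and 160.9 TPM with sgKLF5. The T3M-4 groups did not overlap, and those of BxPC-3 and AsPC-1 did. In SUIT-2 the values were 118.0, 241.5, 261.0 and 292.3 TPM with sgRosa and 174.9, 145.3, 216.4 and 169.9 TPM with sgKLF5. The groups overlapped because the first sgRosa library lay below all others. Every sgKLF5 library of SUIT-2 lay below the remaining sgRosa libraries. The control level of KLF5 was thus lower in AsPC-1 than in the basal-like lines. The change of KLF5 mRNA itself was called higher in the basal-like lines in the mean contrast of the subtypes.

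That SUIT-2 sgRosa replicate 1 stood apart from its group, with a root mean square distance of 0.675 (log2) from the group mean against a median of 0.173 over all 32 libraries. Its 10 most abundant genes took 14.7% of all TPM, against a median of 7.69%. SUIT-2 sgKLF5 replicate 4 was the next farthest, at 0.522. Several results that rest on SUIT-2 are therefore also given without 1 or both of these libraries. The counts of genes that rose or fell within SUIT-2 are not given without them. Libraries held between 11783 and 13116 genes at 1 TPM or more, which stands in for depth, since depth is not recorded in TPM. In such bulk samples fewer cells of a kind and less RNA per cell cannot be told apart.

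The lines were first taken each alone. In limma, with Benjamini-Hochberg adjustment over all genes and a threshold of 0.05, 1188 genes rose (11% of those tested) and 610 fell (5.64%) in T3M-4 after KLF5 knockout, and 1449 rose (13.4%) and 865 fell (7.99%) in BxPC-3. In AsPC-1 814 genes rose (7.52%) and 714 fell (6.60%), and in SUIT-2 2092 rose (19.3%) and 329 fell (3.04%). The median change of all genes was 0.0932 in T3M-4, 0.0534 in BxPC-3, 0.0234 in AsPC-1 and 0.168 in SUIT-2. Scaling the libraries of SUIT-2 to a common median ratio gave 1022 genes that rose and 1028 that fell, and letting each line have its own spread gave 209 and 78. In SUIT-2 a spread of its own thus cut the counts, more strongly than it raised them in the other lines. There they became 2339 and 1124 in T3M-4, 2812 and 1687 in BxPC-3 and 1987 and 1423 in AsPC-1. The number of calls is therefore not firm in any line. Scaling raised the genes that fell to 1045 in T3M-4, 1475 in BxPC-3 and 1200 in AsPC-1. The study describes its replicates as biological, while the labels do not say that they were separate cultures. The p-values measure the spread between these libraries, and not the spread between lines of a subtype. Part of that spread between libraries may be technical or lie between the guides of a group.

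The change on KLF5 loss differed between basal-like and classical lines for 1333 genes. It was higher in the basal-like lines for 518 genes (4.79%) and lower for 815 (7.53%), with a median over all genes of -0.00661. With scaling to a median ratio these counts were 1005 and 934, and without SUIT-2 sgRosa replicate 1 they were 1279 and 1032. Lines of the same subtype also differed: the change was unequal between T3M-4 and BxPC-3 for 1340 genes (12.4%) and between AsPC-1 and SUIT-2 for 1016 (9.39%). A difference between the means of the 2 subtypes can thus come from 1 line. A stricter call was made where all 4 pairs of a basal-like and a classical line differed in the same direction, each past the threshold. It held for 71 genes with a higher change in the basal-like lines (0.656%) and 80 with a lower one (0.739%), all of which the mean contrast called in the same direction. Without SUIT-2 sgRosa replicate 1 it held for 164 and 124 genes.

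**Figure D1:**
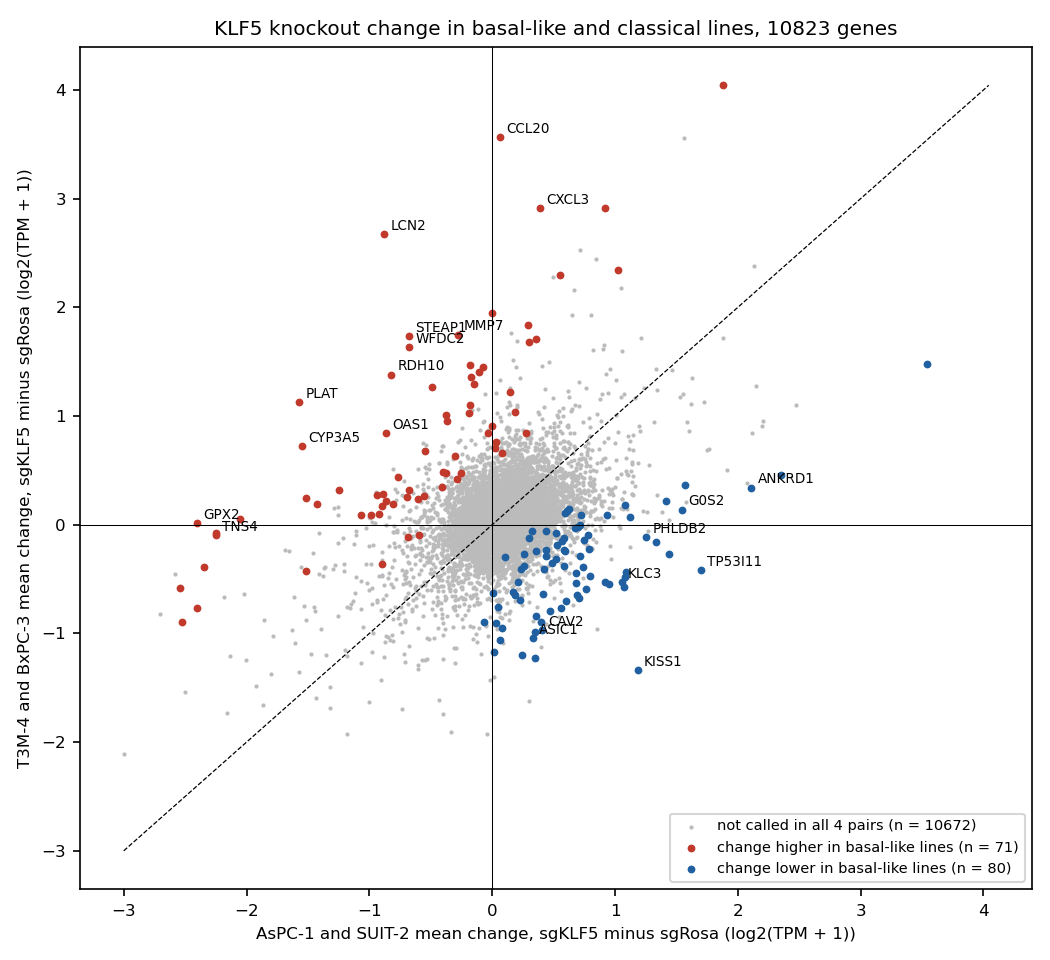
Each point is 1 of the 10823 genes, with its mean sgKLF5 minus sgRosa change (log2(TPM + 1)) in AsPC-1 and SUIT-2 on the x axis and in T3M-4 and BxPC-3 on the y axis. The dashed line marks equal changes, and the 71 red and 80 blue genes, called in all 4 pairs, lie above and below it, with CCL20, LCN2 and KISS1 among the farthest.

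The change was negative in both basal-like lines and positive in both classical lines for 52 of the 80 lower genes, and the reverse held for 35 of the 71 higher genes. Over all genes tested these patterns made up 4.38% and 2.78%, but a call in all 4 pairs itself favors opposite signs, so nothing is read from the difference. Few of them passed the test in all 4 lines. RDH10, OAS1, LDHA, CSTB and DNTTIP1 rose in both basal-like lines and fell in both classical lines, and KLC3, CAV2, PROCR and SCARA3 did the opposite. CSTB, DNTTIP1, PROCR, SCARA3, CTGF, CAV1, CXCL1, CSF1, CYP4F12 and DOK7 are named because of their values, outside the rule for named genes. Among the other higher genes, 19 fell in both classical lines and did not pass the test in either basal-like line, and 17 rose in both basal-like lines and did not pass in either classical line. Among the other lower genes, 24 rose in both classical lines and passed in neither basal-like line, and 25 rose in both classical lines and passed in 1 of the basal-like lines. CTGF, a YAP target, rose in all 4 lines, by 1.39 and 1.56 in T3M-4 and BxPC-3 and by 2.57 and 4.51 in AsPC-1 and SUIT-2.

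Among the genes with a higher change in basal-like cells, 12 were taken whose smallest pair difference was largest. They included the secreted products CCL20, LCN2, CXCL3, MMP7, WFDC2 and PLAT. CCL20, the chemokine ligand of CCR6, was at 25.7, 21.6, 40.8 and 43.4 TPM in T3M-4 sgRosa and at 371.7, 359.7, 388.4 and 411.3 TPM in T3M-4 sgKLF5. In BxPC-3 it went from 0.427, 1.37, 5.98 and 4.53 TPM to 39.4, 40.96, 43 and 35.01 TPM. In AsPC-1 it was at 6.29, 4.65, 9.25 and 9.51 TPM with sgRosa and at 7.01, 7.88, 4.38 and 6.10 TPM with sgKLF5. Every sgKLF5 library of the basal-like lines lay above every sgRosa library of its line, whereas the groups overlapped in AsPC-1 and in SUIT-2, where all 8 values were between 0.211 and 2.48 TPM. CCL20 rose by 3.56 and 3.58 in T3M-4 and BxPC-3, and its difference between the subtypes was 3.51 ± 0.37 (SE, adjusted p = 5.47e-08, limma).

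LCN2, which encodes lipocalin 2, an iron-siderophore binding protein of epithelial defense, differed by 3.55 ± 0.18 (limma adjusted p = 3.42e-14). It was at 1016, 966.1, 1516 and 1413 TPM in T3M-4 sgRosa and 6878, 7319, 6986 and 7002 TPM in T3M-4 sgKLF5. In BxPC-3 the values were 103.9, 105.1, 210.9 and 119.5 TPM with sgRosa and 795.6, 971.5, 919.7 and 940.5 TPM with sgKLF5. In SUIT-2 they were 1181, 923.9, 1632 and 1734 TPM with sgRosa and 466.1, 477.5, 431.5 and 415.3 TPM with sgKLF5. LCN2 therefore rose in both basal-like lines, by 2.55 and 2.80, and fell by 1.57 in SUIT-2. In AsPC-1 its change of -0.19 did not pass, although its sgKLF5 libraries, at 234.8 to 252.7 TPM, lay below those of sgRosa, at 265.1 to 304.3 TPM.

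CXCL3, a neutrophil chemokine, rose by 2.41 and 3.42 in T3M-4 and BxPC-3, with changes of 0.38 and 0.39 in the classical lines, where its level did not exceed 3.29 TPM. MMP7 (matrilysin, a secreted protease) rose by 1.80 and 1.70 in the basal-like lines, from 6.77 to 14.7 TPM over the sgRosa libraries of T3M-4 to 33.4 to 49.4 TPM over those of sgKLF5. It fell by 0.62 in AsPC-1, and its value in SUIT-2 was 0.06. WFDC2, a secreted whey acidic protein, rose by 2.03 and 1.24 in the basal-like lines and fell by 1.11 in AsPC-1. STEAP1, a membrane protein of the metalloreductase family, rose by 1.58 and 1.90 and fell by 0.94 in SUIT-2. These genes shared a higher change in both basal-like lines than in either classical line, but the classical lines differed among themselves in whether they fell.

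A second pattern was a decrease in the classical lines without a matching decrease in the basal-like lines. GPX2, the gut epithelial glutathione peroxidase, was at 15.8, 14.5, 18.7 and 21.9 TPM in AsPC-1 sgRosa and at 3.22, 4.97, 3.27 and 4.87 TPM in AsPC-1 sgKLF5. In SUIT-2 it went from 377.3, 315.6, 384.8 and 393.9 TPM to 36.6, 39.3, 54.8 and 65.3 TPM. In T3M-4 and BxPC-3 all 16 values lay between 112.1 and 168.6 TPM, and the groups overlapped. GPX2 thus fell by 1.89 and 2.92 in the classical lines, and its difference was 2.41 ± 0.16 (limma adjusted p = 9.89e-12). TNS4, a tensin of focal adhesions, fell by 2.42 and 2.08 in AsPC-1 and SUIT-2 and changed by -0.02 and -0.17 in the basal-like lines, neither past the test. In SUIT-2 sgRosa replicate 1 TNS4 was at 15.3 TPM, against 80.7 to 88.5 TPM in the others of its group, so its groups overlapped in SUIT-2. CYP3A5, a drug-metabolizing cytochrome, fell by 1.74 and 1.36 in the classical lines and rose by 1.2 in BxPC-3, where its level was far lower, at 1.81 to 3.02 TPM with sgRosa and 4.50 to 8.77 TPM with sgKLF5.

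Other genes moved in opposite directions. PLAT, which encodes tissue plasminogen activator, was at 644.9, 662.5, 646.1 and 599.7 TPM in AsPC-1 sgRosa and at 183.7, 192.8, 200.3 and 192.6 TPM in AsPC-1 sgKLF5. In T3M-4 it went from 159.8, 168.1, 207.3 and 187.3 TPM to 583.6, 586.9, 566.4 and 538.7 TPM. PLAT rose by 1.66 in T3M-4, fell by 1.72 and 1.42 in AsPC-1 and SUIT-2, and had a value of 0.60 (adjusted p = 0.056) in BxPC-3, whose groups did not overlap. In SUIT-2 the PLAT groups overlapped through sgRosa replicate 1, at 11.5 TPM against 24.95 to 46.6 TPM in the others. RDH10, a retinol dehydrogenase of retinoic acid synthesis, rose by 1.52 and 1.25 and fell by 1.05 and 0.60. OAS1, an interferon-induced antiviral synthetase, rose by 0.81 and 0.89 and fell by 0.92 and 0.82. For RDH10 and OAS1 the sgKLF5 and sgRosa libraries did not overlap in any of the 4 lines.

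**Figure D2:**
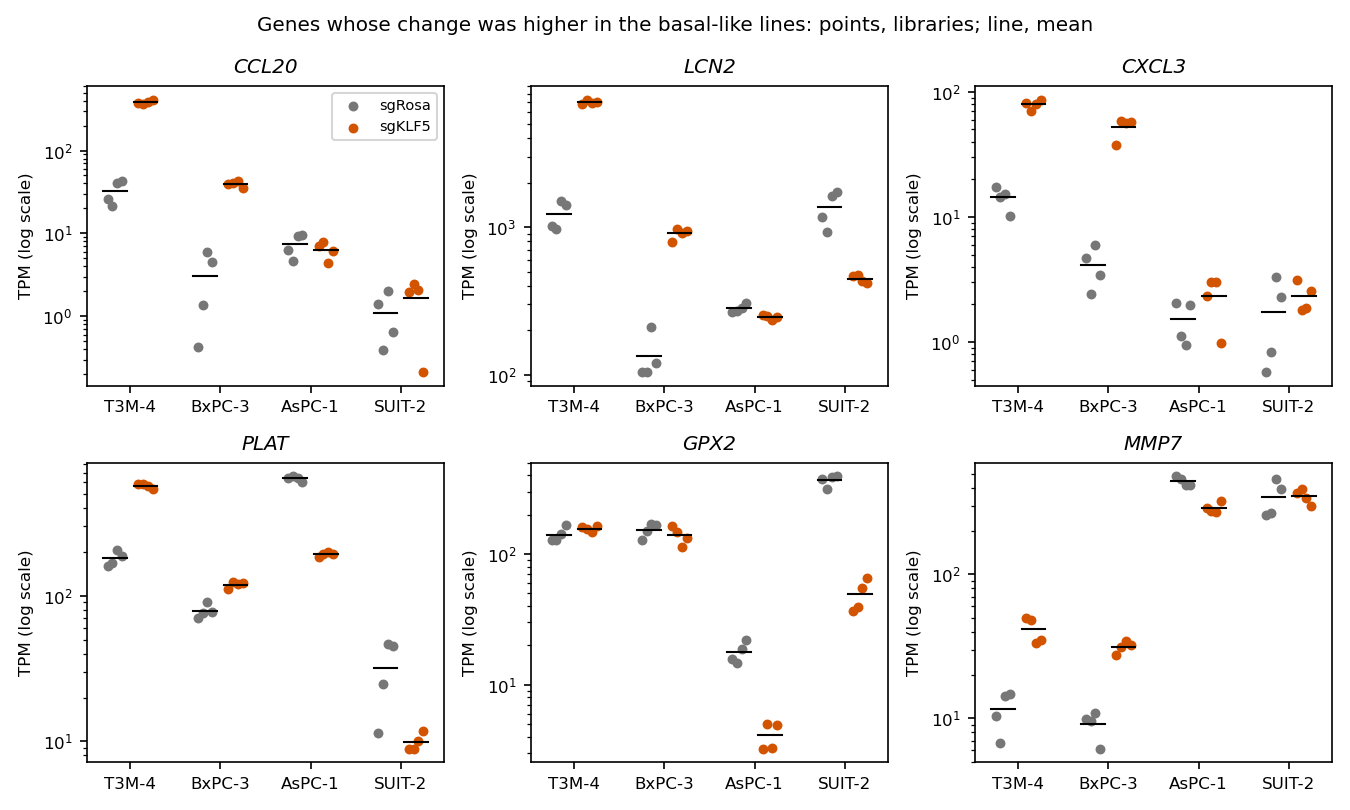
TPM (log scale) of 6 genes with a higher change in the basal-like lines; points are libraries, 4 per group, gray for sgRosa and orange for sgKLF5, and the black lines are means. CCL20, LCN2, CXCL3 and MMP7 rise in T3M-4 and BxPC-3, GPX2 falls in AsPC-1 and SUIT-2, and PLAT rises in T3M-4 and falls in both classical lines.

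Toward a lower change in basal-like cells, KISS1 had the largest difference of the 12 genes taken by their smallest pair difference. KISS1, the precursor of kisspeptins, was at 33.6, 39.9, 57.3 and 63.1 TPM in BxPC-3 sgRosa and at 12.9, 22.03, 14.9 and 21.8 TPM in BxPC-3 sgKLF5. In T3M-4 it went from 5.6, 5.44, 10.4 and 9.77 TPM to 2.21, 1.61, 2.50 and 3.79 TPM. In SUIT-2 it went from 0.765, 0.981, 2.36 and 1.04 TPM to 12.4, 9.04, 6.85 and 7.10 TPM. KISS1 fell by 1.3 and 1.38 in the basal-like lines and rose by 2.12 in SUIT-2, none of these groups overlapping, and its value in AsPC-1 was 0.25. The difference was -2.53 ± 0.26 (limma adjusted p = 5.19e-08).

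CAV2 and CAV1 encode caveolins, the coat proteins of caveolae. CAV2 was at 166.6, 159.7, 156.2 and 160.0 TPM in T3M-4 sgRosa and 93.7, 86.7, 99.8 and 94.4 TPM in T3M-4 sgKLF5. In AsPC-1 it was at 50.7, 43.4, 58.5 and 48.7 TPM with sgRosa and 66.9, 66.8, 67.6 and 65.5 TPM with sgKLF5. CAV2 fell by 0.77 and 1.16 in T3M-4 and BxPC-3 and rose by 0.41 in each classical line, for a difference of -1.38 ± 0.11 (limma adjusted p = 2.81e-10), with overlap of the groups in SUIT-2 alone. CAV1 fell by 1.22 and 1.24 in the basal-like lines and rose by 0.81 in SUIT-2. AJUBA, a LIM protein of cell junctions, fell by 0.78 and 0.90 in the basal-like lines and rose by 0.46 in SUIT-2. KLC3, a kinesin light chain, fell by 0.42 and 0.64 and rose by 0.98 and 1.13, and its groups did not overlap in any line. Its level in AsPC-1 was low, at 0.294 to 0.906 TPM with sgRosa and 1.505 to 2.404 TPM with sgKLF5.

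Another set of genes rose in the classical lines, ANKRD1 from a low level. ANKRD1, a nuclear ankyrin protein and YAP target, was at 0.428, 0.291, 0.0803 and 0.784 TPM in AsPC-1 sgRosa and 7.64, 6.90, 5.47 and 4.92 TPM in AsPC-1 sgKLF5. In SUIT-2 it went from 0.221, 1.16, 1.302 and 0.869 TPM to 7.28, 7.25, 5.74 and 3.06 TPM. In BxPC-3 it was far higher, at 104.0 to 119.3 TPM with sgRosa and 102.7 to 136.9 TPM with sgKLF5. ANKRD1 rose by 2.38 and 1.84 in AsPC-1 and SUIT-2 and by 0.63 in T3M-4, and the groups overlapped in BxPC-3. G0S2, an inhibitor of lipolysis, rose by 1.55 and 1.54, from 16.4 to 16.8 TPM over the AsPC-1 sgRosa libraries to 46.97 to 56.7 TPM over those of sgKLF5. TP53I11 rose by 2.27 and 1.13, PHLDB2 by 1.28 and 1.23, CTNNAL1 by 0.96 and 0.88, CADM4 by 1.22 and 0.68 and TNNI3 by 0.86 and 0.67. TNNI3 was low in AsPC-1, at 0.582 to 2.314 TPM with sgRosa and 1.166 to 4.738 TPM with sgKLF5, and these groups overlapped. ASIC1, an acid-sensing ion channel, instead fell by 1.07 and 1.02 in the basal-like lines, with values of 0.29 and 0.38 in the classical lines.

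**Figure D3:**
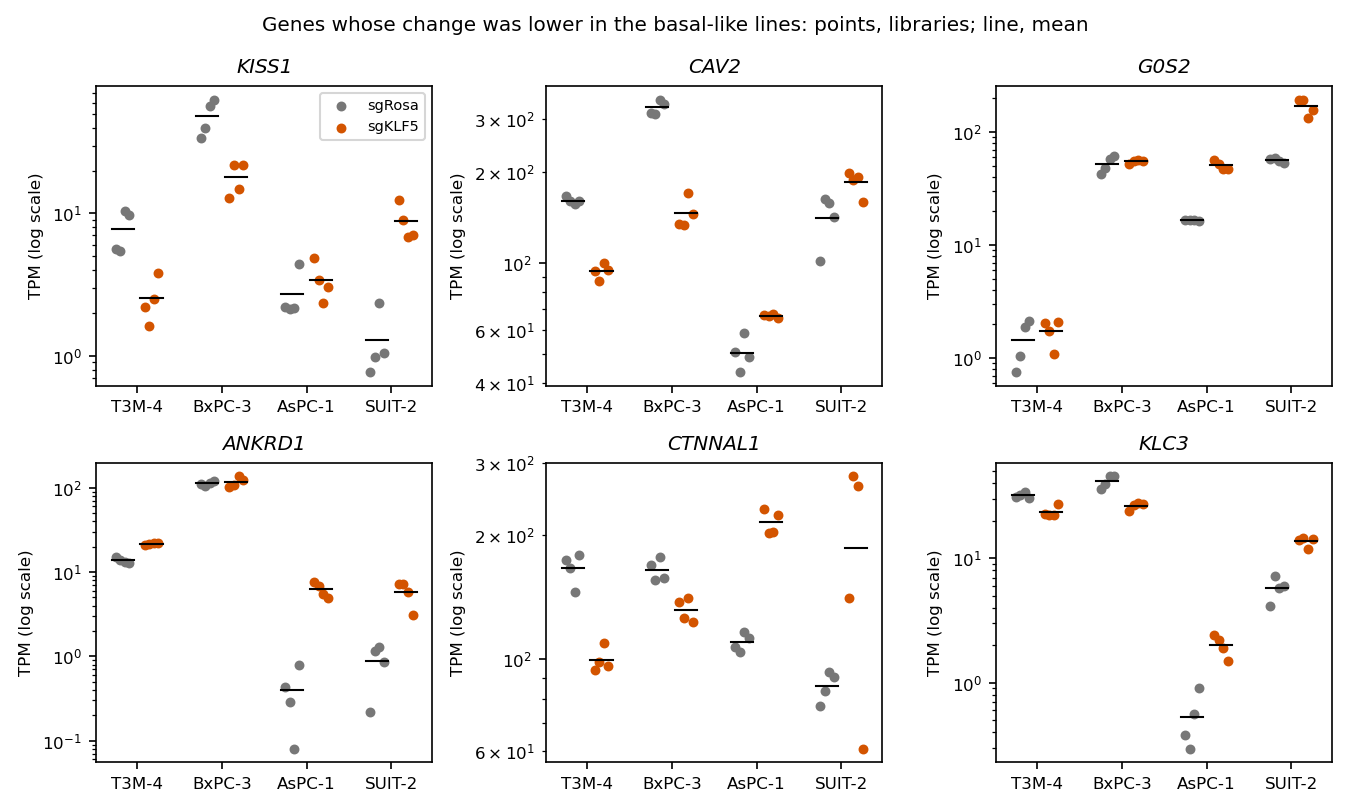
TPM (log scale) of 6 genes with a lower change in the basal-like lines; points are libraries, 4 per group, gray for sgRosa and orange for sgKLF5, and the black lines are means. KISS1 and CAV2 fall in T3M-4 and BxPC-3, while G0S2, ANKRD1, CTNNAL1 and KLC3 rise in AsPC-1 and SUIT-2, ANKRD1 there staying far under its level in BxPC-3.

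When each line was allowed its own spread, SUIT-2 had a weight of 0.246 against 1.43 to 1.69 in the other lines, and 60 lower and 47 higher genes were called in all 4 pairs. Of the 24 genes taken by their smallest pair difference, 12 in each direction, all remained called in the mean contrast. CXCL3, TNS4, WFDC2, ASIC1, TP53I11, ANKRD1, TNNI3 and CADM4 then no longer passed in every pair.

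Promoter sequences are shown for CCL20 and LCN2, the leading higher genes, for KISS1, the leading lower gene, and for CAV2, a lower gene called in every line, because KLF factors bind CACC-type motifs. They run from 250 bases before to 50 bases after the start of the gene, 5′ to 3′, from RefSeq on build GRCh38.p14, and capitals mark matches of CCACCC or GGGCGG on either strand (read as GGGTGG or CCGCCC on the other strand).
CCL20 (chr2:227813592-227813891, plus strand): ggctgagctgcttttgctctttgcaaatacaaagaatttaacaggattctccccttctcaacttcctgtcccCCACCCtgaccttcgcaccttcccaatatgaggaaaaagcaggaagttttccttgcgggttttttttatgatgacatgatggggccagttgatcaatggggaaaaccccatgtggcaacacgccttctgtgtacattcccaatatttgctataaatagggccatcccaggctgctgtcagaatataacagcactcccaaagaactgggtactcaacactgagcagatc
LCN2 (chr9:128149203-128149502, plus strand): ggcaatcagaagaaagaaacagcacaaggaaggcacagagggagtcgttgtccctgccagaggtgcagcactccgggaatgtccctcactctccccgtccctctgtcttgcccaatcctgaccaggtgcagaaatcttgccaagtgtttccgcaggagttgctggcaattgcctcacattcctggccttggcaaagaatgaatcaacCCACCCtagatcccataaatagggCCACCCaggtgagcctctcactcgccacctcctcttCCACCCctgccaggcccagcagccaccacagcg
KISS1 (chr1:204196442-204196741, minus strand): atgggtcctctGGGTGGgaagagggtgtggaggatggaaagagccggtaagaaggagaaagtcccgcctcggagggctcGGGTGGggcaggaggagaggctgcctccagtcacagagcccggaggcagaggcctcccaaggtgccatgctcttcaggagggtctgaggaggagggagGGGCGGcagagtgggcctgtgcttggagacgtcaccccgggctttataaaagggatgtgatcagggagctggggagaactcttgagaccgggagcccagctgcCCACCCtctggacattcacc
CAV2 (chr7:116499488-116499787, plus strand): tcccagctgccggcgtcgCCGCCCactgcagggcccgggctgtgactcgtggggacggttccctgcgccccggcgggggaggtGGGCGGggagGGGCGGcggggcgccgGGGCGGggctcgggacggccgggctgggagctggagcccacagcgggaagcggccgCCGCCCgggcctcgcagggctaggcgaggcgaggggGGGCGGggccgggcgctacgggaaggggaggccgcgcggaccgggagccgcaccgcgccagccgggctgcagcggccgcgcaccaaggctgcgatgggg
LCN2 and KISS1 each hold 3 matches of the CACC-type motif, CCL20 holds 1, and CAV2 holds none but 6 of GGGCGG. Promoters were matched for 55 of the 71 higher genes and 66 of the 80 lower genes. CCACCC was present in 49.1% of the former, 37.9% of the latter and 37.6% of all 8542 promoters matched. GGGCGG, the GC-box core of SP factors, was present in 33 of 55, 53 of 66 and 6149 of 8542 promoters, 80.3% in the lower genes. A match describes the letters in this window and not binding.

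Gene groups were then counted in the mean contrast, beside 4.79% higher and 7.53% lower over all genes. Of 14 tested chemokines and cytokines, 9 had a higher change in the basal-like lines and 2 a lower one, with a median difference of 1.29. CXCL1, a neutrophil chemokine, rose in all 4 lines, by 3.84 and 4.25 in the basal-like lines and 2.61 and 1.15 in the classical lines, and CSF1, the macrophage growth factor, also rose in all 4. CCL28, a mucosal chemokine, rose by 2.11 and 1.57 in the basal-like lines, with values of 0.30 and 0.28 in the classical lines. The 2 lower members were IL18, which fell by 0.76 and 1.15 in the basal-like lines and rose by 0.34 in SUIT-2, and IL32, which rose in all 4 lines and by 3.57 in SUIT-2. Several members thus rose in both subtypes and differed in size. With a minimum of 5 TPM in each line fewer members could be tested, 2 were higher and 2 lower, and the median was 0.327.

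Interferon-stimulated genes had 14 of 37 members higher and 0 lower, with a median difference of 0.353, and 9 were higher where a minimum of 5 TPM was required. In T3M-4 28 of them rose and none fell, in BxPC-3 22 rose and 2 fell, in AsPC-1 2 rose and 2 fell, and in SUIT-2 14 rose and 1 fell. EPSTI1, an interferon-responsive gene, rose by 1.6 and 1.3 in the basal-like lines, with values of -0.34 and 0.20 in AsPC-1 and SUIT-2. Of 19 antigen presentation genes 4 were higher and 0 lower, against 1 higher with weights per line and 8 without the 2 far SUIT-2 libraries. B2M, 1 of the 4, rose by 0.69 and 0.21 in the basal-like lines. Of 14 BMP and TGF-beta response genes 6 were higher and 0 lower. ID1, an inhibitor of bHLH factors and a BMP target, fell by 1.1, 1.52 and 2.52 in BxPC-3, AsPC-1 and SUIT-2 and had a value of -0.19 in T3M-4. PMEPA1, a TGF-beta target, rose by 2.00 and 0.71 in the basal-like lines.

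Cholesterol and fatty acid synthesis had 13 of 31 members lower, 0 higher and a median difference of -0.335, and 19 lower without the 2 far SUIT-2 libraries. Its members fell mostly in BxPC-3, where 18 fell and 1 rose, and rose mostly in SUIT-2, where 15 rose and none fell. In T3M-4 6 fell and 1 rose, and in AsPC-1 9 fell and 2 rose. INSIG1, the sterol-regulated anchor of the SREBP pathway, fell by 1.03 and 1.36 in the basal-like lines and rose by 0.71 in SUIT-2. FADS1, a fatty acid desaturase, fell by 0.73 in BxPC-3 and rose by 0.70 and 0.66 in the classical lines. Mitosis and G2/M genes had 12 of 48 members lower and 0 higher, with a median of -0.213; 26 were lower without the 2 far SUIT-2 libraries and 5 with scaling to a median ratio. KIF20A, a mitotic kinesin, fell by 0.54 and 0.48 in the basal-like lines. DNA replication genes gave 3 higher and 1 lower of 47, and ribosome biogenesis genes 0 in either direction of 34. Single lines did differ in these lists. DNA replication genes only fell in T3M-4 (11) and AsPC-1 (7), and only rose in BxPC-3 (27) and SUIT-2 (13). For ribosome biogenesis 3 fell in T3M-4, while 20 rose in BxPC-3 and 12 in SUIT-2.

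**Figure D4:**
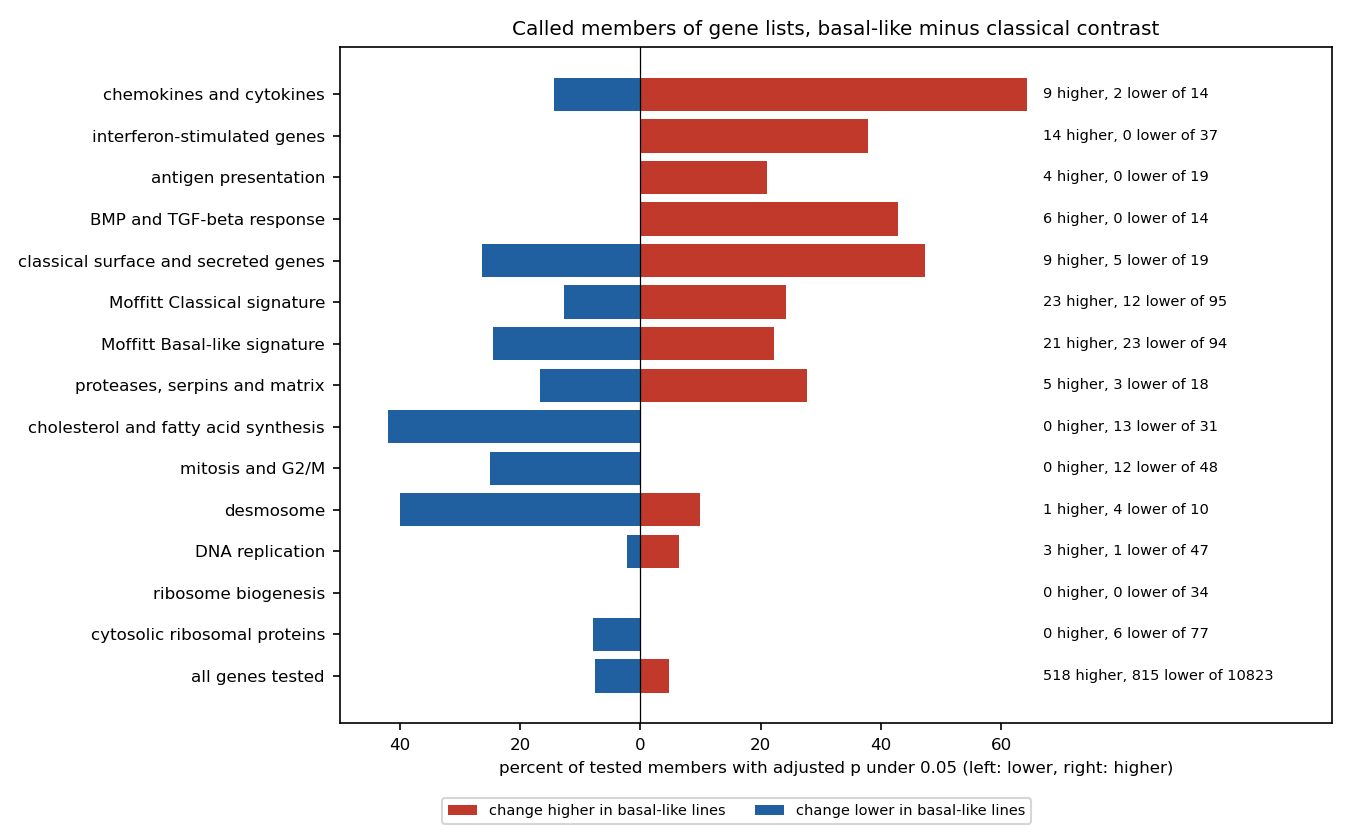
Bars give the percent of the tested members of each gene list called lower (left) or higher (right) in the basal-like minus classical contrast, with counts at the right. Chemokines and cytokines, with 9 of 14 higher, and cholesterol and fatty acid synthesis, with 13 of 31 lower, lie well above the 4.79% and 7.53% of all genes.

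Genes of lineage identity were divided. Of 95 tested genes of the Moffitt Classical signature 23 had a higher and 12 a lower change in the basal-like lines, and of 94 of the Moffitt Basal-like signature 21 were higher and 23 lower. Of 19 classical surface and secreted genes 9 were higher and 5 lower, with a median of 0.639, which became 2 and 2 with a median of -0.0314 where a minimum of 5 TPM was required. CYP4F12 fell by 3.14 and 1.96 in AsPC-1 and SUIT-2 with values of -0.67 and -0.50 in the basal-like lines, whereas AGR2, a disulfide isomerase of mucous cells, rose by 4.12 in AsPC-1 and by 1.31 in T3M-4 and fell by 0.93 in SUIT-2. ELF3, an epithelial ETS factor, fell by 1.37 and 0.85 in the classical lines and was the only one of 9 tested endodermal factors called. FXYD3, a regulator of the sodium pump, fell in BxPC-3, AsPC-1 and SUIT-2, by 0.96, 2.72 and 2.09, from 2882 to 3533 TPM over the BxPC-3 sgRosa libraries and from 12.3 to 22.9 TPM over those of AsPC-1.

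Most squamous genes could not enter the comparison, since they were under the minimum of 1 TPM in 1 or both of the classical lines. Of 34 basal keratin and squamous genes 6 were tested. Taken within lines, in a fit over genes that reached a mean of 1 TPM in any line, KRT5 fell by 2.33 in T3M-4 and 0.93 in BxPC-3, KRT14 by 2.77 and 1.22, and KRT17 by 1.42 and 0.77. These keratins share sequence with near copies, and KRT6A, which fell by 1.59 and 0.66, cannot be fully told from KRT6B and KRT6C. KRT6B itself fell by 0.68 in T3M-4 and rose by 1.55 in BxPC-3. The cornified envelope genes were divided as well: SPRR1A and SPRR1B fell in both lines, by 1.87 each in T3M-4, whereas SPRR2A and SPRR2D fell by 1.12 each in T3M-4 and rose by 0.54 and 0.60 in BxPC-3. SPRR3 and IVL fell by 1.70 and 0.90 in T3M-4, and their values in BxPC-3 were 0.002 and 0.25. S100A8 and S100A9, the subunits of calprotectin, moved the other way, by 3.04 and 2.1 in T3M-4 and 3.18 and 2.91 in BxPC-3. KRT4, KRT13, KRT16, SCEL, DSG3, TRIM29, A2ML1 and IL1RN fell in both lines, KRT4 by 2.28 and 1.08. Of the squamous genes outside the comparison, only S100A8 and S100A9 rose past the threshold in both lines. Most of these squamous genes therefore fell in T3M-4 and many in BxPC-3, though not as 1 block. On the classical side HNF4A fell by 1.49 in AsPC-1 and had a value of -0.52 (adjusted p = 0.0594) in SUIT-2, and MYO1A fell by 2.67 and LGALS4 by 0.96 in AsPC-1. REG4, a gut lectin, rose by 4.15 in AsPC-1.

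Genes that fell in every line were the counterpart. This list of shared targets was chosen in an earlier analysis of these data for falling after KLF5 knockout in all 4 lines, so its direction within lines is not independent evidence. Of its 11 members, 10 fell in T3M-4, 10 in BxPC-3 and 11 in each classical line, and 3 had a higher change in the basal-like lines, SERPINB5, MMP28 and CAVIN3. SERPINB5 (maspin) fell by 1.04 in T3M-4, 1.74 in AsPC-1 and 1.34 in SUIT-2, with a value of -0.46 in BxPC-3. EMP1, PLCD3, KLK10 and C1orf116 fell in all 4 lines and did not pass in the mean contrast, where their differences were -0.20 ± 0.13, -0.36 ± 0.22, 0.44 ± 0.17 and -0.21 ± 0.18. The 3 calls were 8 without the 2 far SUIT-2 libraries and 7 with scaling to a median ratio. The study also listed direct targets of KLF5 from labeling of new RNA after KLF5 degradation, joined with KLF5 binding. Of 64 direct targets in AsPC-1 18 were higher and 3 lower, and of 62 in T3M-4 8 were higher and 13 lower.

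The comparison was repeated with the libraries of experiment 1, where T3M-4 and BxPC-3 were set against AsPC-1 alone. T3M-4 and BxPC-3 had 4 sgKLF5 and 2 sgRosa libraries each and AsPC-1 had 6 and 2, and the contrast called 474 genes higher (4.34%) and 470 lower (4.30%) with a median of -0.200 over all genes. One library, T3M-4 sgKLF5 replicate 2, stood apart, with KLF5 at 92.1 TPM and a root mean square distance of 0.842, and without it 1251 genes were higher and 1785 lower. Of the genes called in all 4 pairs, 63 of 70 higher genes and 72 of 77 lower genes had the same sign, 90.0% and 93.5%, against 57.6% of all genes tested in both. Of these, 31 higher and 42 lower genes passed the test again, and 1, DOK7, passed in the opposite direction. The median difference was 0.69 for the higher genes and -0.818 for the lower ones.

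LCN2 again rose in both basal-like lines, from 367.5 and 369.4 TPM to between 2267 and 4188 TPM in T3M-4 and from 104.2 and 108.4 TPM to between 1399 and 1979 TPM in BxPC-3. In AsPC-1 it was at 249.9 and 293.4 TPM with sgRosa and 373.3 to 447.4 TPM with sgKLF5, and there it rose by 0.58, the groups not overlapping. The difference was 2.89 for LCN2, 1.91 for CCL20, 2.49 for PLAT and 3.51 for WFDC2, each past the test. TP53I11 differed by -4.09, rising in AsPC-1 from 2.24 and 2.42 TPM to between 66.8 and 78.4 TPM, and ANKRD1 differed by -2.82. Not all repeated: GPX2, OAS1, CYP3A5 and TNS4 gave 0.32, 0.12, 0.25 and 0.56 and TNNI3 gave -0.01, none past the test. GPX2 had fallen in AsPC-1 in experiment 3, but was at 4.83 TPM in both sgRosa libraries and at 3.87 to 6.65 TPM with sgKLF5 there in experiment 1. OAS1, which had risen in BxPC-3, was lower there with sgKLF5 in experiment 1. It was at 24.83 to 29.57 TPM, against 69.78 and 76.27 TPM with sgRosa. In T3M-4 the OAS1 groups overlapped. TNS4 was lower with sgKLF5 in both basal-like lines as well as in AsPC-1. In T3M-4 it was at 37.75 to 123.9 TPM, against 169 and 171.1 TPM with sgRosa. In BxPC-3 it was at 39.18 to 62.26 TPM, against 170.2 and 171.4 TPM. Some changes within a line also did not repeat. CAV2 in AsPC-1 was at 54.13 to 87.57 TPM with sgKLF5, against 77.8 and 89.36 TPM with sgRosa. MMP7 in AsPC-1 was at 343.6 to 439.8 TPM, against 339 and 366.4 TPM. STEAP1 in BxPC-3 was at 33.75 to 40.15 TPM, against 37.29 and 37.58 TPM. KLC3 in T3M-4 was at 19.37 to 28.22 TPM, against 23.29 and 26.55 TPM.

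Gene groups repeated unevenly. Over all genes tested in experiment 1 the shares were 4.34% higher and 4.30% lower, with a median of -0.2. Chemokines and cytokines again had more higher than lower members, 6 and 2 of 16, with a median of 0.67. Interferon-stimulated genes did not, with 1 higher and 6 lower of 38 and a median of -0.368. Cholesterol and fatty acid genes gave 1 higher (3.23%) and 2 lower (6.45%) of 31, and antigen presentation 0 in either direction of 19. Mitosis and G2/M gave 2 higher (4.17%) and 0 lower of 48. The shared targets, in the same libraries, gave 1 higher and 3 lower of 11, with a median of -0.827, against 0.425 before. Basal keratins and squamous genes, 14 of which could be tested there, gave 8 lower and 0 higher. The excess of higher members in the Moffitt Classical signature did not repeat, with 10 higher and 21 lower of 102. The Moffitt Basal-like signature gave 8 higher and 26 lower of 109. Classical surface and secreted genes gave 5 higher and 8 lower of 20, with a median of -0.894. The direct targets of AsPC-1 gave 12 higher and 11 lower of 63, and those of T3M-4 4 and 25 of 67.

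**Figure D5:**
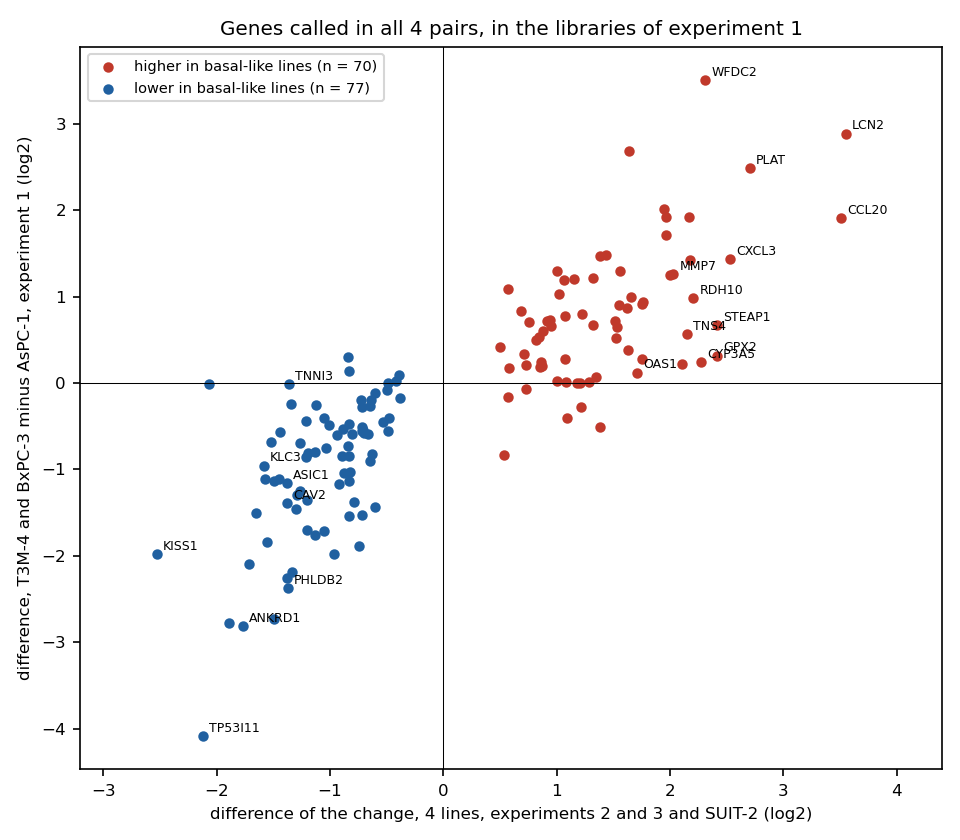
Each point is a gene called in all 4 pairs, with its basal-like minus classical difference (log2) in the 4 lines on the x axis and the difference of T3M-4 and BxPC-3 from AsPC-1 in experiment 1 on the y axis. Of the 70 red genes 63 lie above 0, and of the 77 blue genes 72 lie below 0.

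The control level was read from the sgRosa libraries of experiment 1, which took no part in the calls. Of the 71 higher genes 27 (38.0%) had a control level more than 1 (log2) lower in both basal-like lines than in AsPC-1, against 6.21% of all genes tested. Of the 80 lower genes 22 (27.5%) had a control level more than 1 higher in both, against 7.78%, and 10 (12.5%) had one more than 1 lower in both, against 6.21%. Of the higher genes 6 (8.45%) had a control level more than 1 higher in both. STEAP1 is an example of the former, at 4.53 and 6.23 TPM in T3M-4, 37.3 and 37.6 TPM in BxPC-3 and 275.5 and 289.7 TPM in AsPC-1. MMP7 is another, at 3.91 and 7.33 TPM in T3M-4, 9.08 and 9.45 TPM in BxPC-3 and 339.0 and 366.4 TPM in AsPC-1.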

How the data were processed

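RNA was sequenced as single-end reads of 76 bases, and the authors quantified them with kallisto on hg38 and deposited TPM values per gene, without counts. 4 of the 8 deposited tables were used, and 20 columns that matched no listed sample were left out. Values were taken as log2(TPM + 1), and changes were fitted in limma 3.58.1 (R 4.3.3) with 1 mean per line and guide, an abundance trend and no covariate, leaving 24 residual degrees of freedom. P-values were adjusted by Benjamini-Hochberg over all genes tested, with a threshold of 0.05. The exact permutation test over 2 lines against 2 was not run, since it cannot reach that threshold. The fit was checked on simulated data. Named genes were KLF5, the 12 per direction with the largest smallest pair difference among genes called in all 4 pairs, the 2 members per list and direction with the lowest p, the tested shared targets and the markers, of which some are not reported here. Members and lists were chosen with earlier results of these data known. The batch label is 2 for T3M-4 and BxPC-3, 3 for AsPC-1 and 1 for SUIT-2, and experiment 1 holds the other 3 lines within batch 1. Replicate numbers did not pair the samples. Alternatives were other abundance filters, scaling, weights, a replicate block and leaving out libraries or lines.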

Additional observations from a re-analysis of the deposited data

Results flagged for a closer look

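The change on KLF5 loss differed between the basal-like and classical lines, by a test of the difference itself, for 815 genes that were lower and 518 that were higher in the basal-like lines, and in all 4 pairs for 80 and 71. It also differed between T3M-4 and BxPC-3 for 1340 genes and between AsPC-1 and SUIT-2 for 1016. Among the genes taken by their smallest pair difference, it was 3.51 for CCL20, 3.55 for LCN2, 2.70 for PLAT and 2.53 for CXCL3. The mean difference was 2.42 for STEAP1, 2.15 for TNS4, 2.2 for RDH10 and 2.41 for GPX2. For MMP7 it was 2.03, for OAS1 1.71, for CYP3A5 2.28 and for WFDC2 2.31. In the other direction it was -2.53 for KISS1, -1.58 for KLC3, -1.41 for G0S2, -1.38 for ASIC1, -2.12 for TP53I11, -1.37 for PHLDB2, -1.77 for ANKRD1, -1.45 for CTNNAL1, -1.38 for CAV2, -1.36 for TNNI3 and -1.5 for CADM4.

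Single libraries lay far from the rest of their group by Dixon's criterion in 15 of 264 groups, and chance gives about 1 in 20. With sgRosa these were LCN2 at 210.9 TPM in BxPC-3 replicate 3 (others 103.9 to 119.5), TNS4 at 15.27 TPM in SUIT-2 replicate 1 (others 80.72 to 88.53), CYP3A5 at 1.332 TPM in T3M-4 replicate 4, KISS1 at 4.398 TPM in AsPC-1 replicate 4, and TNNI3 at 1.299 TPM in BxPC-3 replicate 4 and 2.314 TPM in AsPC-1 replicate 2. With sgKLF5 they were CXCL3 at 37.32 TPM in BxPC-3 replicate 1, RDH10 at 19.18 TPM in AsPC-1 replicate 1, KLC3 at 27.37 TPM in T3M-4 replicate 4 and PHLDB2 at 2.242 TPM in SUIT-2 replicate 4 (others 9.026 to 10.05). In the sgKLF5 libraries of experiment 1 they were CXCL3 at 5.367 TPM and TNNI3 at 44.91 TPM in T3M-4 replicate 2, KISS1 at 13.3 TPM in AsPC-1 replicate 6 (others 1.593 to 2.776), ASIC1 at 1.532 TPM in BxPC-3 replicate 3 and ANKRD1 at 18 TPM in AsPC-1 replicate 2.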

How the results depend on the processing

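Counts below are given as lower and higher in the basal-like lines, first for the mean contrast and then for all 4 pairs. Requiring 1 TPM in any line gave 1471 and 1058, and 165 and 166; no filter gave 1597 and 1196, and 164 and 168. A minimum of 5 TPM left 47 higher genes in all 4 pairs. Scaling by the median of ratios gave 934 and 1005, and 121 and 137, and array weights per line left 47 higher genes in all 4 pairs. With a replicate block, although the numbers did not pair the samples (correlations of -0.466 to 0.283, 5 of 16 over 0.1), the counts were 637 and 403, and 60 and 56. Leaving out BxPC-3 gave 507 lower genes, leaving out AsPC-1 298 higher genes, and leaving out SUIT-2 1314 and 1688. Leaving out each library in turn gave 723 to 1032 lower and 455 to 1279 higher genes, and 67 to 124 and 55 to 164 in all 4 pairs, each highest without SUIT-2 sgRosa replicate 1. Chosen after seeing the data, leaving out SUIT-2 sgRosa replicate 1 and sgKLF5 replicate 4 together gave 1268 and 1479, and 161 and 181. Scaling gave 2091 genes between T3M-4 and BxPC-3. Also chosen after seeing the data, scaling within lines gave 1045 genes that fell in T3M-4, 1475 in BxPC-3, 1200 in AsPC-1 and 1028 in SUIT-2, where 1022 rose. Array weights gave 1124 that fell and 2339 that rose in T3M-4, 1687 and 2812 in BxPC-3, 1423 and 1987 in AsPC-1 and 78 and 209 in SUIT-2. In experiment 1 scaling gave 1168 and 853, and leaving out each library, chosen after seeing the data, gave 160 to 1785 lower and 154 to 1251 higher genes, lowest without AsPC-1 sgRosa replicate 2. The causes were not tested. Of 4419 values of single genes under these alternatives, 68 changed side of the threshold and 0 reversed. Depth is not recorded in TPM, so the precision of low values is unknown.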

Other observations

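Knockout of other genes in the same experiments gives a reference for some of these genes. In T3M-4 CCL20 was at 382.8 TPM with sgKLF5 (mean of 4) and 32.9 TPM with sgRosa, and at 85.7 TPM with sgRUVBL1 (mean of 3), 81.7 TPM with sgRUVBL2 (mean of 4), 59.95 TPM with sgCDK1 and 90.3 TPM with sgRpa3 (means of 2). In BxPC-3 it was at 39.6 TPM with sgKLF5 and between 2.53 and 3.88 TPM with the other guides, sgRosa included. In AsPC-1 it was at 7.43 TPM with sgRosa, 6.34 TPM with sgKLF5, 7.71 TPM with sgRUVBL1, 18.2 TPM with sgRUVBL2, 4.34 TPM with sgCDK1 and 36.2 TPM with sgRpa3. The highest AsPC-1 levels of CCL20 were thus with sgRpa3 and sgRUVBL2 and not with sgKLF5. LCN2 in T3M-4 was at 1228 TPM with sgRosa, 7046 TPM with sgKLF5 and between 2055 and 4618 TPM over the means of the other guides. In BxPC-3 LCN2 was at 134.8 TPM with sgRosa, 906.8 TPM with sgKLF5 and between 112.8 and 236.9 TPM over the means of the other guides. In AsPC-1 LCN2 was at 281.2 TPM with sgRosa, 246.1 TPM with sgKLF5 and between 108.8 and 307.1 TPM over the means of the other guides. OAS1 in T3M-4 was at 134.8 TPM with sgRosa, 234.9 TPM with sgKLF5 and between 244.8 and 292.7 TPM over the other guides. In BxPC-3 OAS1 was at 39.7 TPM with sgRosa, 74.2 TPM with sgKLF5 and between 31.3 and 39.6 TPM over the others. PLAT in BxPC-3 was at 78.5 TPM with sgRosa, 119.2 TPM with sgKLF5 and 199.8 TPM with sgCDK1. A rise was thus not confined to sgKLF5 for every gene and line. These values were not tested.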
